A study of Mus musculus with 6 samples.

Results

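The genes described here encode the afferent synapse of the inner hair cell, 10 genes chosen by name out of the 30462 in the deposited table. They are Otof, Slc17a8, Cacna1d, Cacnb2, Cabp2, Ctbp2, Bsn, Pclo, Rims2 and Rimbp2. Cochleae, the hearing organs, of mice at postnatal day 7 were profiled by RNA sequencing, with 3 libraries of genotype NEU4 KO (replicates 2, 4 and 5) and 3 of genotype WT (replicates 3, 4 and 5). Neu4 encodes a sialidase. The strain, the sex of the animals, the mutant allele and any pooling of animals are not given in the labels, nor is it said that libraries are separate animals, so p-values measure the spread between these libraries only.

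Inner hair cells turn sound into graded release of glutamate onto the dendrites of spiral ganglion neurons. Calcium enters through L-type channels clustered under an electron-dense ribbon, which holds vesicles ready, and otoferlin takes the place that synaptotagmins have at most other synapses. The synapse is still immature at this age, before the onset of hearing. Several of the proteins, among them bassoon, piccolo, the RIM proteins and the channel subunits, also serve ordinary synapses of neurons, and the cochlea holds far fewer inner hair cells than other cells.

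The values are FPKM, fragment counts scaled by exon length and by library size. The length that fitted most values was that of all annotated exons of a gene joined, which can exceed the length of any 1 transcript. It was 13228 bp for Cacnb2, whose longest coding transcript has 3945 bp, and 7904 bp for Otof, against 7129 bp. Comparisons between genes below are of these scaled values and not of transcript numbers. Library totals implied by the values were 15170973 to 17192293 fragments. The targeted gene, Neu4, was close to undetected everywhere: its mean was 0.0797 ± 0.0255 FPKM in knockout against 0.0779 ± 0.0242 FPKM in wild type (SD, n = 3), or 4 to 8 fragments a library in both groups (two-sided exact permutation p = 0.8, with 0.1 the lowest this design allows). The genotypes could not be checked from its RNA, and "knockout" below means labelled so. Libraries also differed in soft tissue: the summed FPKM of 7 middle ear epithelium markers, led by Bpifa1 and Bpifb1, was 13.1 to 104 in knockout and 396 to 749 in wild type, and that of 12 skeletal muscle markers 40.7 to 262 and 147 to 635. The part of these differences in the results below was not tested. From Xist and Ddx3y, knockout 2 and wild types 3 and 4 were male and the other libraries female.

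Hair cell markers were present at low levels, with exceptions. The hair cell transcription factor gene Pou4f3 had 2.76 to 4.29 FPKM, the motor gene Myo7a 5.43 to 6.28, and all 14 hair cell markers were above 0 in some library. Slc26a5, which encodes the outer hair cell motor protein prestin, was near 0, with 0 to 11 fragments a library, and Fgf8, a growth factor gene of inner hair cells, had 1 to 15 fragments. Of 10 brain markers, 6 had a mean under 0.1 FPKM, among them the forebrain neuron genes Neurod6 and Tbr1 and the inhibitory neuron genes Gad2 and Slc32a1.

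For Ctbp2 and Cacnb2 the gene-level value joins transcripts from separate start sites, and the sequences before these sites are shown because the table cannot tell the sites apart. Ctbp2 encodes both CtBP2, a transcriptional corepressor found in most cells, and RIBEYE, the main protein of the ribbon, which is made from an internal start. In GENCODE M21 a 9-exon transcript begins at this internal start with a first exon of 1731 bp (chromosome 7, 133013518 to 133015248, GRCm38, minus strand). That exon holds 1687 of the transcript's 2964 coding bases, and none of the 1335 coding bases of a transcript that encodes CtBP2 alone. Of the 6220 bp of Ctbp2 exons, 1084 bp (17.4%) occur only in the 2 transcripts of the internal start. RefSeq promoter windows of 240 bases for 4 start sites follow, on GRCm38.p6, 5′ to 3′ on the gene's strand. They need not reach the annotated start: the window of the internal Ctbp2 start stops at 133015258, and that start is at 133015248. The first and second Cacnb2 starts are named by the order of their windows. The first of these windows lies downstream of the annotated gene start at 14603088. Capitals mark the E-box CANNTG (the site type of basic helix-loop-helix factors) and ATTAAT (a POU-type core) on both strands, which do not overlap in these windows.
Ctbp2 internal start, chr7:133015258-133015497, minus strand: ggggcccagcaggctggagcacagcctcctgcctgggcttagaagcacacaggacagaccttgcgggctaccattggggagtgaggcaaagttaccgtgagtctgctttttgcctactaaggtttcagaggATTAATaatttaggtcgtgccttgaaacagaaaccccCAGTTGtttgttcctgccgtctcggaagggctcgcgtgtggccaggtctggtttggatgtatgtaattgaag
Ctbp2 upstream start, chr7:133081871-133082110, minus strand: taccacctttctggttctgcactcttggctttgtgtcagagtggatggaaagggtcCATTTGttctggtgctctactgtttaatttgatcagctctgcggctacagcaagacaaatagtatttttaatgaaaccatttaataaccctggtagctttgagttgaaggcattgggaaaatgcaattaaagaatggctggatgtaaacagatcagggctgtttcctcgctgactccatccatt
Cacnb2 first start, chr2:14604056-14604295, plus strand: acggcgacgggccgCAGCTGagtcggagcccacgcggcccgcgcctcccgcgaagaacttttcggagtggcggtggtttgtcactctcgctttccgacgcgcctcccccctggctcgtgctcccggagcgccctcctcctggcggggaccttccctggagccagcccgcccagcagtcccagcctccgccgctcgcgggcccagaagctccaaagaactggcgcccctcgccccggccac
Cacnb2 second start, chr2:14823842-14824081, plus strand: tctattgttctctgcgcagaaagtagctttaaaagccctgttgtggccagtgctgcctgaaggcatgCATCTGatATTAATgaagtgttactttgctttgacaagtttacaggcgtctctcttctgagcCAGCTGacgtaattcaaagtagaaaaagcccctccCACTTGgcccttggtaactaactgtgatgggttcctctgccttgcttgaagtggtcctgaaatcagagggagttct
ATTAAT occurred in the window of the internal Ctbp2 start and in that of the second Cacnb2 start. None of the other windows held it, among 13 found for the 10 genes. It occurs in 4.29% of all 32851 such windows, and CANNTG in 65.0%. The first Cacnb2 window is rich in G and C (73.3%, with 29 CpG), the second is not (46.3%, with 3 CpG). RefSeq windows were found for 8 of the 10 genes, and Otof and Rims2 had none. Slc17a8, Cacna1d and Cabp2 also had windows at separate starts, which are not shown.

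Otof and Ctbp2 had the highest FPKM of the 10 genes, and Pclo the lowest. Over the 6 libraries the mean level was 7.76 FPKM for Otof and 6.31 for Ctbp2, and these 2 together made up 56.6% to 62.5% of the summed FPKM of the 10. Cabp2 (2.30), Cacna1d (2.10), Slc17a8 (1.83) and Bsn (1.42) followed. Rimbp2 (0.895), Cacnb2 (0.855), Rims2 (0.526) and Pclo (0.155) lay under 1 FPKM. Neighbours in this order had ranges that did not overlap for Otof and Ctbp2, Ctbp2 and Cabp2, Bsn and Rimbp2, Cacnb2 and Rims2, and Rims2 and Pclo. The ranges overlapped along Cabp2, Cacna1d, Slc17a8 and Bsn and between Rimbp2 and Cacnb2, although Cacna1d was above Slc17a8, and Slc17a8 above Bsn, in each of the 6 libraries.

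**Figure D1:**
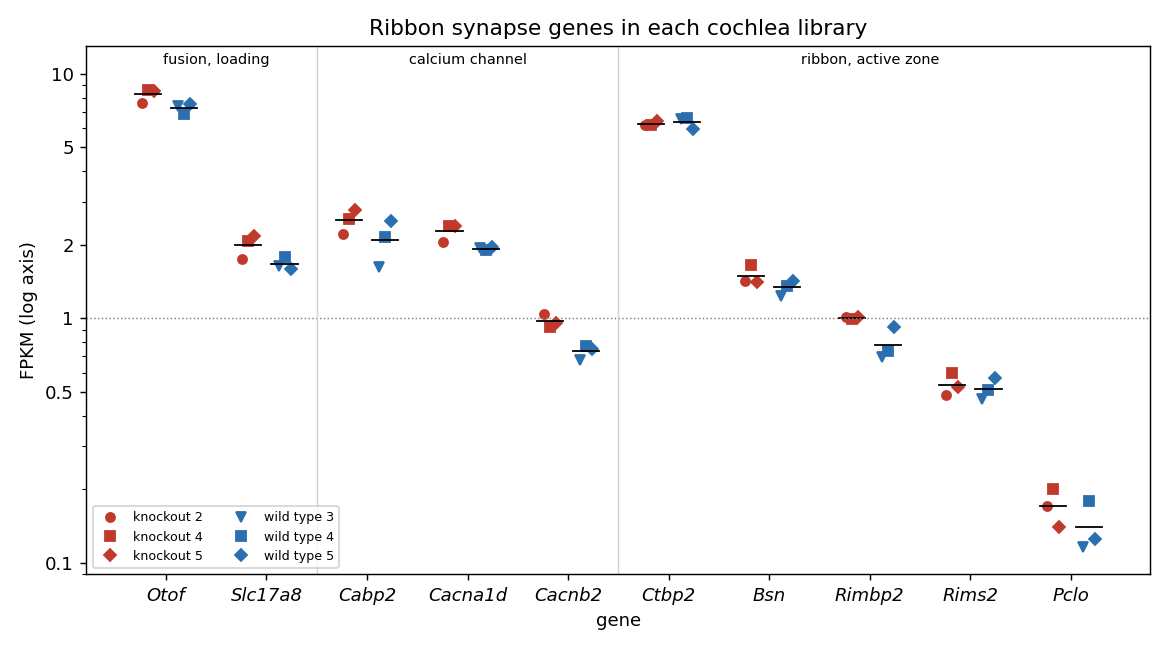
FPKM (log axis) of each gene in each library, knockout in red and wild type in blue, marker shape giving the replicate number and black bars the group means; the dotted line is 1 FPKM. Otof and Ctbp2 lie above 5 FPKM in every library, and the 3 knockout values lie above the 3 wild type values for Otof, Cacna1d, Cacnb2 and Rimbp2.

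None of the 10 genes passed the test between the genotypes, while 9 of the 10 had a higher mean in the knockout libraries. The test was limma on log2(FPKM + 1) over the 14072 genes with at least 1 FPKM in at least 3 libraries, with Benjamini-Hochberg adjusted p under 0.05 as the threshold. Of these genes 47 (0.334%) were called. The filter kept 6 of the 10 genes, of which 0 were called by limma and 1, Otof, had an unadjusted p under 0.05 with a higher knockout mean, as did 10.6% of the genes tested (17.6% in either direction). With voom on recovered fragments 0 of 5 were called, against 2.83% of genes; Cacna1d, without recovered fragments, was not tested there. Rimbp2 reached 1 FPKM in 2 knockout libraries only, Cacnb2 in 1 and Rims2 and Pclo in none. These 4 genes are given from a second limma fit over the 24232 genes above 0 in at least 3 libraries, where 0.0825% were called. There Otof and Cacnb2 had an unadjusted p under 0.05 with a higher knockout mean, as did 7.82% of genes.

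Every knockout value lay above every wild type value for 4 of the 10 genes, Otof, Cacna1d, Cacnb2 and Rimbp2, and for 12.2% of the 24232 genes or 13.4% of the 13387 genes whose mean FPKM lay within the range of the 10. The opposite order was found in 0 of the 10 and in 7.87% of genes. A higher knockout mean, as in 9 of the 10, was found in 56.7% of the 24232 genes, 57.1% of the 14072 and 60.4% of those within the range. The median log2 fold change of the 10 genes was 0.16, against 0.02 over the 14072 genes tested and 0.02 over the 24232. In bulk RNA, more or fewer cells of a type and more or less RNA per cell cannot be told apart. With median-ratio scaling of the libraries, Otof no longer separated the groups, which left 3 genes. Leaving out 1 library at a time gave 4 to 6, the 6 being found without knockout 2, wild type 4 or wild type 5. Omission of a library cannot undo such a separation, so this count could only stay or rise and does not check it.

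**Figure D2:**
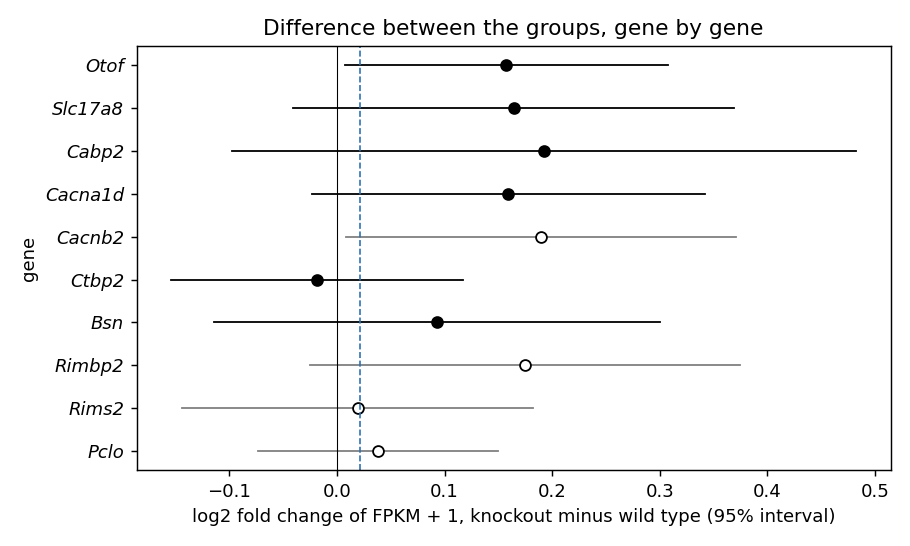
Log2 fold change of FPKM + 1, knockout minus wild type, with its 95% interval from limma; filled points are genes that passed the filter, open points come from the fit without it, and the dashed line is the median of all genes tested. The intervals of Otof and Cacnb2 lie just above 0 before adjustment, and the interval of each other gene holds 0.

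Otof encodes otoferlin, a large vesicle protein with several calcium-binding domains that triggers fusion in hair cells. Its FPKM was 7.60 in knockout 2, 8.62 in knockout 4 and 8.50 in knockout 5, and 7.42 in wild type 3, 6.88 in wild type 4 and 7.54 in wild type 5. Knockout 2 lay just above wild type 5, and the other knockouts lay apart from the wild types. The mean was 8.24 ± 0.556 against 7.28 ± 0.349 (SD, n = 3), a ratio of 1.13. On the test scale the log2 fold change was 0.16 (SE 0.064, 95% interval 0.01 to 0.31, adjusted p = 0.269, limma). The value rested on 935 to 1153 fragments a library, and counting error alone gave a 95% interval of 1.08 to 1.19 for the ratio. The gene lies on chromosome 5 (30367062 to 30461932, minus strand, GRCm38), with 7904 bp of exons.

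Slc17a8 encodes the vesicular glutamate transporter VGLUT3, which loads the vesicles of inner hair cells. Its FPKM was 1.75, 2.07 and 2.16 in knockouts 2, 4 and 5, while wild types 3, 4 and 5 had 1.64, 1.77 and 1.59. Wild type 4 lay just above knockout 2, so the groups overlapped. The ratio of means was 1.20 and the log2 fold change 0.16 (SE 0.087, 95% interval -0.04 to 0.37, adjusted p = 0.372, limma), on 120 to 165 fragments a library. The gene lies on chromosome 10 (89574020 to 89621253, minus strand).

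Cacna1d encodes the pore of the L-type calcium channel that carries nearly all calcium current of inner hair cells. Its FPKM was 2.05, 2.38 and 2.40 in knockouts 2, 4 and 5, while wild types 3, 4 and 5 had 1.93, 1.90 and 1.95. The wild types lay close together, and all knockouts lay above them, knockout 2 by little. The ratio of means was 1.18 and the log2 fold change 0.16 (SE 0.078, 95% interval -0.02 to 0.34, adjusted p = 0.337, limma). Its exons on chromosome 14 (30039939 to 30491455, minus strand) share 589 bp with Chdh on the other strand, which had 2.76 to 3.77 FPKM. The sources used here do not say whether strand was used in counting.

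Cacnb2 encodes the beta subunit that brings this channel to the hair cell membrane, and it had the largest ratio of means of the 10 genes. Its FPKM was 1.04, 0.925 and 0.962 in knockouts 2, 4 and 5, while wild types 3, 4 and 5 had 0.678, 0.774 and 0.747. The lowest knockout lay well above the highest wild type. The mean was 0.977 ± 0.0609 against 0.733 ± 0.0497 (SD, n = 3), a ratio of 1.33, on 148 to 230 fragments a library. Counting error alone gave a 95% interval of 1.18 to 1.50. The log2 fold change on the FPKM + 1 scale, which shrinks differences of low genes, was 0.19 (SE 0.076, 95% interval 0.01 to 0.37, adjusted p = 0.353, limma without the filter). On fragments (voom, genes with at least 10 fragments in 3 libraries, an alternative added after the data were seen) it was 0.41 with an adjusted p = 0.0900, where 2.03% of 16822 genes were called. Antisense genes that share exon bases with Cacnb2 (chromosome 2, 14603088 to 14987908, plus strand) were at 0 to 0.154 FPKM.

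Cabp2 encodes a calcium-binding protein that slows inactivation of the channel. Its FPKM was 2.22, 2.54 and 2.78 in knockouts 2, 4 and 5, while wild types 3, 4 and 5 had 1.62, 2.15 and 2.50. The groups overlapped because wild type 5 lay above knockout 2. With 1350 bp of exons it rested on only 36 to 58 fragments a library, and its interval was the widest of the 10 (log2 fold change 0.19, SE 0.123, 95% interval -0.10 to 0.48, adjusted p = 0.458, limma). The gene lies on chromosome 19 (4081578 to 4087340, plus strand).

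Ctbp2 was the only gene of the 10 with a lower knockout mean, by an amount within the spread. Its FPKM was 6.16, 6.19 and 6.42 in knockouts 2, 4 and 5, while wild types 3, 4 and 5 had 6.52, 6.61 and 5.93, so that wild type 5 lay below all other libraries. The log2 fold change was -0.02 (SE 0.058, 95% interval -0.15 to 0.12, adjusted p = 0.896, limma), and it was 0.01 without wild type 4 or with the replicate number in the model. The interval corresponds to a fold of FPKM + 1 between 0.899 and 1.08. This holds for the sum of CtBP2 and RIBEYE transcripts, and the share of RIBEYE was not measured. Of the exons on chromosome 7 (132987563 to 133124354, minus strand), 314 bp are shared with Fgfr2 on the same strand, which had 23.7 to 29.5 FPKM.

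Bsn and Pclo encode bassoon and piccolo, giant scaffold proteins of the active zone, bassoon being the anchor of the ribbon. Bsn had an FPKM of 1.43, 1.65 and 1.41 in knockouts 2, 4 and 5, while wild types 3, 4 and 5 had 1.24, 1.35 and 1.43. Wild type 5 lay above 2 of the knockouts. The log2 fold change of Bsn was 0.09 (SE 0.088, 95% interval -0.11 to 0.30, adjusted p = 0.617, limma), on 325 to 444 fragments a library. Pclo, with 22457 bp of exons the longest of the 10, had an FPKM of 0.171, 0.19995 and 0.141 in the knockouts and 0.116, 0.179 and 0.125 in the wild types, in the same order of replicates, or 43 to 76 fragments. Its groups overlapped (adjusted p = 0.770, limma without the filter). Bsn was higher than Pclo in each library and made up 88.3% to 91.9% of their summed FPKM. Bsn shares 57 bp of exons with Gm47303 (at most 0.559 FPKM). They lie on chromosome 9 (108096022 to 108190384, minus strand) and chromosome 5 (14514918 to 14863459, plus strand).

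Rims2 encodes the RIM protein of hair cell active zones, and Rimbp2 a RIM-binding protein that links it to the channel. Rims2 had an FPKM of 0.485, 0.597 and 0.527 in knockouts 2, 4 and 5, while wild types 3, 4 and 5 had 0.466, 0.509 and 0.572, with full overlap (adjusted p = 0.933, limma without the filter). Rimbp2 had 1.01, 0.998 and 1.01 in the knockouts and 0.694, 0.733 and 0.919 in the wild types. The knockouts of Rimbp2 were nearly equal, and wild type 5 lay closer to them than to the other wild types. The ratio of Rimbp2 means was 1.29 and its log2 fold change 0.17 (SE 0.084, 95% interval -0.03 to 0.37, adjusted p = 0.432, limma without the filter). Rims2 lies on chromosome 15 (39198261 to 39684372, plus strand) and Rimbp2 on chromosome 5 (128757791 to 128953486, minus strand), where 34 bp of exons are shared with Gm42875 (at most 0.650 FPKM).

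Set beside their paralogues by FPKM, the members of the ribbon synapse were the leading form in some families and a minor one in others. Otof (7.76 FPKM) and Myof, the ferlin of muscle and other tissues (7.70), had similar means over all libraries, but Otof was above Myof in each of the 3 knockouts and below it in each of the 3 wild types. Myof had 7.27 ± 0.448 FPKM in knockout and 8.13 ± 0.435 in wild type (SD, n = 3), a difference that did not pass (adjusted p = 0.298, limma). Otof was above Dysf (3.71), Fer1l5 (1.91), Fer1l6 (0.0794) and Fer1l4 (0.0115). Cabp2 (2.30) exceeded Cabp1 (1.74) in each library, and Caln1 (0.684), Cabp7 (0.487), Cabp4 (0.0114) and Cabp5 (0.00826) were lower. Cabp4, known from photoreceptor ribbon synapses, was thus close to 0 in all libraries. The same was true of Cacna1f (0.0212), the photoreceptor's channel gene.

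Slc17a8 (1.83) lay below Slc17a7 (4.90), a glutamate transporter gene of neurons, and took 17.8% to 24.4% of the summed FPKM of the 3 transporters. Slc17a6 (1.91) had 2.35 ± 0.0980 in knockout and 1.47 ± 0.1995 in wild type (SD, n = 3), a log2 fold change of 0.44 that did not pass (adjusted p = 0.0999, limma). Cacna1d (2.10) was below the neuronal Cacna1a (3.10) and Cacna1c (2.54) of heart and vessels, and above Cacna1e (0.959) and Cacna1b (0.796). Cacna1s, the channel gene of skeletal muscle, lay below Cacna1d in 5 of 6 libraries (mean 1.66), and in wild type 5 above it, so that its wild type mean (2.08) exceeded that of Cacna1d (1.93). Cacnb2 (0.855) was exceeded by Cacnb3 (31.1) and Cacnb1 (7.55) in every library and made up 1.65% to 2.65% of the summed beta subunits, with Cacnb4 at 0.344. Rims3 (3.90) and Rims4 (1.57) exceeded Rims2 (0.526), and Rims1 was lower (0.240). Tspoap1 (1.28) exceeded Rimbp2 (0.895) in 5 of 6 libraries, and Rimbp3 was at 0.129. Ctbp1 (45.7) was above Ctbp2 in every library. Of the 27 paralogues, 16 passed the filter and 0 were called (limma), with 9 higher, 7 lower and a median log2 fold change of 0.00; 3 of the 16 had every knockout above and 3 every knockout below every wild type (15.2% and 9.54% of genes tested).

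**Figure D3:**
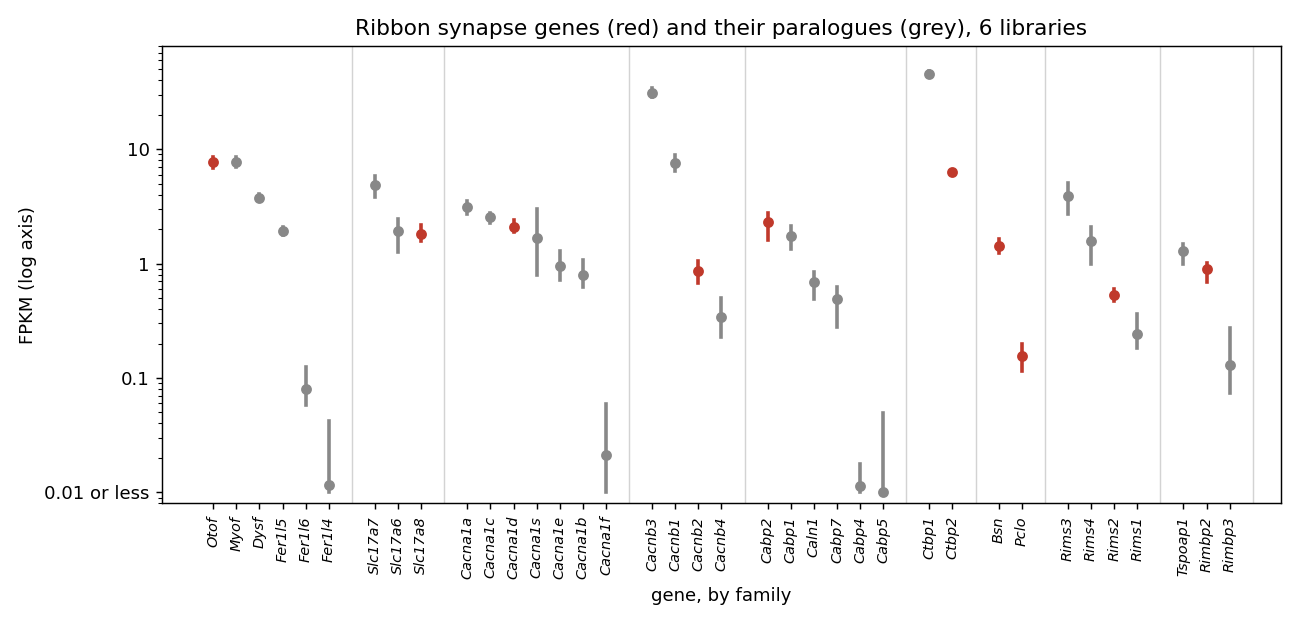
FPKM (log axis) of each ribbon synapse gene (red) and its paralogues (grey), by family; points are means over the 6 libraries and lines run from the lowest to the highest library, values under 0.01 being drawn at 0.01. Otof and Myof have similar means over the 6 libraries, with Otof above Myof in the 3 knockouts only, and Cabp2 and Bsn lead their families. The ranges of Slc17a8, Cacna1d, Cacnb2, Ctbp2 and Rims2 lie wholly below that of at least 1 paralogue.

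Other genes of hair cell exocytosis and membrane recycling were also not called. Of 21 listed genes 18 were tested, 12 higher and 6 lower, with a median log2 fold change of 0.09 and 0 calls (limma). Over all genes tested, 57.1% had a higher knockout mean. Every knockout lay above every wild type for 6 of the 18 and below for 2 (15.2% and 9.54% of genes tested). The most abundant were Ap2m1, an adaptor subunit of endocytosis that binds otoferlin, at 69.9 ± 1.08 FPKM in knockout and 70.4 ± 2.49 in wild type (SD, n = 3), and Dnm1, the dynamin of vesicle recycling, at 41.6 ± 2.03 and 47.4 ± 3.36 (adjusted p = 0.921 and 0.209, limma).

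Genes of conventional presynaptic terminals, which mark neurons rather than hair cells, had a similar median. All 17 were tested, 15 higher and 2 lower, with a median log2 fold change of 0.15 and 0 calls (limma). A higher knockout mean was found in 57.1% of genes tested. For 5 of the 17 every knockout lay above every wild type, and for 1 below (15.2% and 9.54% of genes tested). Cplx1, a complexin, had 63.7 ± 6.70 FPKM in knockout and 50.05 ± 7.42 in wild type, and Vamp2, a vesicle SNARE, 45.1 ± 1.96 and 47.0 ± 4.96 (SD, n = 3; adjusted p = 0.207 and 0.757, limma). Of 13 genes of the postsynaptic side and of synaptic adhesion 6 were tested, 3 higher and 3 lower, with a median of -0.03 and 0 calls (limma). The scaffold gene Shank1 had 16.7 ± 0.547 against 20.04 ± 1.77 FPKM, and Shank3 7.77 ± 0.167 against 8.59 ± 0.229 (SD, n = 3; adjusted p = 0.151 and 0.234, limma). Every knockout lay below every wild type for 3 of the 6, Shank1, Shank3 and Dlg4, and above for 0 (9.54% and 15.2% of genes tested).

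Both the summed hair cell markers and the summed ribbon synapse genes were higher in each knockout than in any wild type, but within the groups their orders differed. The summed FPKM of 14 hair cell markers, none of them among the 10 genes, was 44.8, 52.1 and 48.8 in knockouts 2, 4 and 5, while wild types 3, 4 and 5 had 43.4, 38.9 and 40.1. All 11 markers tested had a higher knockout mean, as did 57.1% of genes tested, with a median log2 fold change of 0.15 and 0 calls (limma). For 4 of the 11 every knockout lay above every wild type, and for 0 below (15.2% and 9.54% of genes tested). Ush1c of the stereocilia had 14.4 ± 1.71 against 10.2 ± 0.623 FPKM and Cib2 6.35 ± 0.595 against 6.29 ± 1.11 (SD, n = 3). Without Ush1c, an alternative added after the data were seen, the sum was 32.3 to 36.3 in knockout and 29.5 to 32.8 in wild type, and the groups overlapped. The summed FPKM of the 10 genes was 23.9, 26.2 and 26.3 in knockouts 2, 4 and 5, against 22.3, 22.9 and 23.3 in the wild types. Expressed as a share of the hair cell marker sum, it was 53.4%, 50.2% and 53.9% in the knockouts and 51.4%, 58.8% and 58.2% in the wild types, and the groups overlapped.

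Gene by gene, 9 of the 10 shares overlapped between the groups, including those of the 4 genes whose FPKM had separated them. The Otof share was 16.5% to 17.4% in knockout and 17.1% to 18.8% in wild type. The Cacnb2 share was 1.78% to 2.33% and 1.56% to 1.99%. The Ctbp2 share alone did not overlap, at 11.9% to 13.8% in knockout and 14.8% to 17.0% in wild type, as was so for 37.9% of all genes tested when divided by the same sum (0.767% were higher in every knockout). Without Ush1c in the sum, 9 of the 10 shares again overlapped, and that of Ctbp2 was 17.1% to 19.1% in knockout and 19.9% to 22.4% in wild type, a separation found for 21.3% of genes tested.

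**Figure D4:**
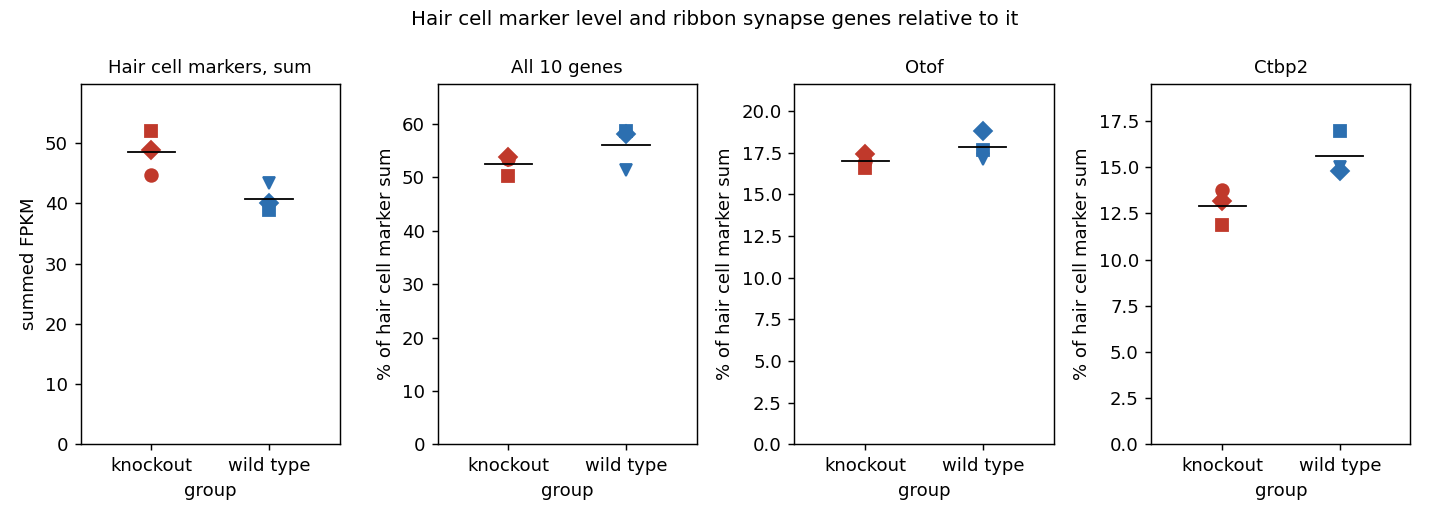
Summed FPKM of 14 hair cell markers, and the summed FPKM of the 10 ribbon synapse genes, of Otof and of Ctbp2 as a percentage of that sum, by group; points are libraries, with shapes for replicate numbers as in the plot of levels by library, and bars are means. The marker sum is higher in all 3 knockouts, a separation lost without Ush1c, and the shares of the 10 genes and of Otof overlap.

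Markers of other cells differed in other ways. The summed FPKM of 13 spiral ganglion neuron markers overlapped, at 190 to 246 in knockout and 153 to 219 in wild type. Of these markers 9 were higher and 4 lower (median log2 fold change 0.12, 0 called by limma), and 57.1% of genes tested had a higher knockout mean. The most abundant of the markers, Nefm and Tubb3, had 41.8 to 50.9 and 34.9 to 47.2 FPKM in knockout against 31.5 to 42.9 and 27.3 to 43.8 in wild type. Of 7 outer hair cell markers 3 were tested and 0 called, Ocm, which encodes oncomodulin, being 3.60 ± 0.939 against 1.99 ± 0.553 FPKM (SD, n = 3). Among the inner hair cell markers outside the 10 genes, Tbx2 had 40.8 ± 3.79 against 39.5 ± 2.00 FPKM, and it is also expressed outside hair cells. Fgf8, the other such marker, had 0.134 ± 0.0850 against 0.373 ± 0.260 FPKM, from 9 and 25 fragments over the 3 libraries of each group, which overlapped. Of 4 vestibular genes 3 were tested, 2 higher and 1 lower. The oxidase gene Nox3 was called (10.7 ± 0.384 against 6.80 ± 0.818, adjusted p = 0.0458, limma). Oc90, the most abundant of the 4, had 84.2 ± 16.0 against 85.4 ± 9.16 FPKM (SD, n = 3). The summed FPKM of the 4 overlapped, at 84.3 to 116 in knockout and 91.1 to 107 in wild type. Vestibular hair cells also have ribbons, and the part of vestibular tissue in the values above was not tested. Of the 10 brain markers 4 were tested and 0 called (limma), Gfap, a gene of glia, being 4.38 ± 0.754 against 3.22 ± 0.777 FPKM (SD, n = 3). The summed FPKM of 8 neutrophil markers, led by S100a9 and Ngp, was 90.5 to 157 in knockout and 34.7 to 94.7 in wild type. Of these markers 6 were tested, 5 higher and 1 lower, with a median log2 fold change of 1.13 and 0 calls (limma). Every knockout lay above every wild type for 5 of the 6, and below for 0 (15.2% and 9.54% of genes tested). The efferent neuron genes Chat and Slc5a7 were at most 0.0140 and 0.175 FPKM.

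By the mean absolute difference of centred log2(FPKM + 1) values over the 6 libraries, the 3 of 12491 protein-coding genes most like Otof were Trpm1 (0.0166), a channel gene of melanocytes, Col9a1 (0.0199), a collagen of cartilage and the tectorial membrane, and Gclc (0.0211), of glutathione synthesis. Of the 5 other ribbon synapse genes that passed the filter, Cacna1d was the nearest, in place 8 (0.0235), followed by Slc17a8 in place 553 and Bsn in place 884. Cabp2 and Ctbp2 were in places 5584 and 5560. With 6 libraries this is a description of shape and carries no test.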

How the data were processed

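RNA of 6 cochlea libraries was prepared with the VAHTS Universal V6 kit, per the labels' protocols. The authors deposited FPKM values, 1 column per library, on build GRCm38 per the submitters' processing notes. No source used here gives aligner, counter, annotation or strand setting. The 10 genes and the gene lists were chosen with earlier results of these data known. Text names all 10 genes, all paralogues, and from other lists up to 4 called genes or, where none was called, the 2 most abundant; other markers named were chosen after their values were seen, and some genes that the rule names are not reported here.

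Multiplying FPKM by GENCODE M21 exon length gave whole fragments (tolerance 0.01) for 98.3% of values after scaling by library, including those for 8 of the 10 genes but not for Cacna1d and Rimbp2. The main test, limma 3.58.1 on log2(FPKM + 1), took genes that reached 1 FPKM in 3 or more libraries (lmFit, eBayes with trend, two-sided, Benjamini-Hochberg) in R 4.3.3. It was also run on simulated data, with an outcome that is not reported here. Intervals are 95%; those from counts (exact binomial, conditional on the total) cover counting error only. Other tools were Python 3.11.15, pandas 2.3.3, scipy 1.17.1 and matplotlib 3.10.9. Of the listed genes, Camlg was matched as Caml, and Slc18a3 was not matched. The settings varied were the pseudocount, the FPKM filter, library scaling and weights, variance moderation, sex and replicate terms, omission of each library, and voom.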

Additional observations from a re-analysis of the deposited data

How the results depend on the processing

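Of 115 values of the 10 genes under the alternatives, 0 were called, 113 kept their direction and 2, both of Ctbp2, changed it: a log2 fold change of 0.00823 with the replicate block, and 0.00650 without wild type 4, the upper end of a range that went down to -0.0607 without wild type 5. The adjusted p of Otof ran from 0.177 to 0.489 (limma, voom included), and the smallest of any of the 10 genes was that of Cacnb2 with voom (0.0900). Of the 10 genes, those with a higher knockout mean numbered 8 to 10 with 1 library left out. Those with every knockout above every wild type numbered 4 to 6, a count that omission of a library can only keep or raise. The number of genes called over the whole table was 47. It was 20 without the FPKM filter, 103 with at least 5 FPKM, 19 without the trend, 104 with library weights, 24 with sex as a covariate and 10 to 98 with 1 library left out (10 and 13 when knockouts 2 or 4 were dropped, 98 for knockout 5; 12, 11 and 16 for wild types 3, 4 and 5). With voom it was 390, and 342 with the fragment filter. The replicate block gave 22; groups share only the numbers 4 and 5, whose deviations from the group means correlated at 0.141 and 0.150, so these numbers do not establish pairing. Why the counts moved was not tested. Cabp2, Rims2 and Pclo rested on 36 to 105 fragments a library, and their counting intervals alone held a ratio of 1.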
